A study of Mus musculus with 11 samples.

Results

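The 10 genes described here encode 7 E2F factors and the 3 retinoblastoma (pocket) proteins of the mouse, and PU.1 occupancy was measured within each gene body and 5 kb on each side. They were chosen by name from 22,359 protein-coding genes on the mm9 assembly and fall into 3 activator E2Fs (E2f1, E2f2, E2f3), 4 repressor E2Fs (E2f4, E2f5, E2f6, E2f8) and 3 pocket proteins (Rb1, Rbl1, Rbl2). The 10 regions hold 1079 windows of 500 bp, of 5,117,361 windows in the genome.

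E2F factors bind short GC-rich elements in the promoters of genes for DNA replication and mitosis. The pocket proteins Rb1 (pRB), Rbl1 (p107) and Rbl2 (p130) bind E2F factors and hold their targets silent until cyclin-dependent kinases phosphorylate them. E2F and pocket proteins are known in the erythroid lineage for the coupling of cell cycle exit to terminal maturation, and mouse fetuses without E2f4 or without Rb1 are anaemic. PU.1, the product of Sfpi1, is an Ets factor that recognises purine-rich sequence around GGAA, holds erythroid progenitors in an immature state and is a target of proviral insertion in Friend erythroleukemia.

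The study compared leukemic with normal immature erythroid cells. MEL cells, a murine erythroleukemia line, were used as clone 4 carrying Gata-1 fused to ER, so that all MEL libraries, input included, come from this 1 stably transfected clone. ES-EP are erythroid progenitors grown from embryonic stem cells in medium with Epogen, hIGF-1, dexamethasone and murine SCF. No treatment that would activate the fusion protein is named in the labels. Chromatin of each cell type was immunoprecipitated with antibody T-21 against PU.1 as 2 preparations, A and B, each sequenced as 2 libraries that were summed here (n = 2 preparations per cell type), and the MEL input is 1 library and the ES-EP input 2 libraries summed. Libraries hold between 2,054,667 and 5,051,235 reads on the chromosomes. Expression data of these cells were not analysed here, so that their identity was not checked by expressed markers, and no gene was targeted.

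The preparations were unequal in enrichment. Reads in the windows called in their own cell type were 5.94% of MEL A, 7.60% of MEL B, 7.19% of ES-EP A and 3.92% of ES-EP B, against 1.15% of the MEL input and 1.00% of the ES-EP input. The windows were called from these same reads, so that a higher share in ChIP than in input is built into the choice. The inputs also differed from each other: windows within 500 bp of a transcription start site (TSS) held 3.85% of the MEL input but 5.64% and 7.17% of the ES-EP inputs. Windows called in MEL alone held 0.769%, 3.42% and 4.64%, but these windows were called against the same inputs. A lower MEL share in them is thus partly built into the choice and is no separate measure of the inputs. The part of the input in windows called in 1 cell type alone near a TSS was not tested. To set reads of different depth side by side, 1 input read stands for 1.33 reads in MEL A and 1.63 in MEL B, and for 0.839 reads in ES-EP A and 0.948 in ES-EP B.

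The sequences under the main sites are printed first, since several of the strongest sites of the family lie on short purine-rich words. Capitals mark the PU.1 word GAGGAAGT and its first part GAGGAA, the E2F words TTTCCCGC, TTTCGCGC, TTTGGCGC and TTTGCCGC, and a pair of shorter Ets words that were added after the sequences had been seen. The first of these is GGAAGT, which lies within the PU.1 word, and the other is CGGAAG, which can overlap the first. All were searched on both strands, and the strongest windows of E2f6 and E2f8 held none of the purine-rich ones. The sequences come from the NCBIM37 (mm9) genome and are written 5′ to 3′ on the strand named. In E2f4 the upstream stretch (chr8:107821480-107821562, + strand) and 30 bases across the start site (chr8:107821561-107821590, + strand) each hold 2 copies of CGGAAG in a row:
E2f4 upstream: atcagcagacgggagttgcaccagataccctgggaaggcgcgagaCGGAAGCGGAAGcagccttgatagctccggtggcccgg
E2f4 start: ggcgactaggaaCGGAAGCGGAAGTggcgc
For the other activator and repressor promoters, the stretch around the word next to the summit is shown for E2f3 (chr13:30076153-30076250, + strand), E2f1 (chr2:154394915-154394944, - strand, in an annotated UTR) and E2f5 (chr3:14578570-14578665, - strand):
E2f3 promoter: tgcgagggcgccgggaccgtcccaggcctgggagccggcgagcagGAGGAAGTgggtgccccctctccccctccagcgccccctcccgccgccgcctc
E2f1 UTR: atctgccagaggGAGGAActgaggcccaga
E2f5 promoter: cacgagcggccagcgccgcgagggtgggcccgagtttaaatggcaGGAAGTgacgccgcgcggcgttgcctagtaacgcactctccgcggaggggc
The Rb1 start site is shown because a GGAAGT word and an E2F word lie side by side there (chr14:73725609-73725638, - strand), and 2 stretches far from a start site, in the E2f2 intron (chr4:135734119-135734216, - strand) and upstream of Rbl1 (chr2:157034166-157034263, - strand), are shown because they carry GAGGAAGT at windows called in ES-EP alone:
Rb1 start: GGAAGTgacgtTTTCCCGCggttggcccgg
E2f2 intron: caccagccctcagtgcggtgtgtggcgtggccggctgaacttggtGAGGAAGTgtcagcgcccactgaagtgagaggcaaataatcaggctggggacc
Rbl1 upstream: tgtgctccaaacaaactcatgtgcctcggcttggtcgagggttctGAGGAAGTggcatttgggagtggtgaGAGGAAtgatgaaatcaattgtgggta

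PU.1 occupied windows at 8 of the 10 genes in MEL and at 9 in ES-EP. A window was called when the reads of both preparations together exceeded the local input (one-sided Poisson test, Benjamini-Hochberg adjusted p below 0.05 over all windows) and each preparation alone had p below 0.05. Of the 1079 windows, 15 were called in MEL (1.39%) and 16 in ES-EP (1.48%), against 0.359% and 0.265% of all windows and 0.591% and 0.423% of the windows within protein-coding genes and 5 kb around them. The called windows were 8 in both cell types (against 0.128% of all windows), 7 in MEL alone (against 0.231%) and 8 in ES-EP alone (against 0.137%). With an exact binomial test on the input of the window itself, in place of the local input, the same 4 windows were called in each cell type, the strongest ones of E2f1, E2f3, E2f4 and E2f8, and all other calls were lost. With MEL preparation B left out 6 windows were called in MEL, 1 each at E2f1, E2f4, E2f5, E2f6, E2f8 and Rbl1. With ES-EP preparation A left out 6 were called in ES-EP, at E2f1, E2f3, E2f4 and E2f8. The genes without a called window were E2f2 and Rbl2 in MEL and E2f6 in ES-EP. E2f6 gained 1 window in ES-EP with the grid of windows moved by 250 bp, and E2f2 gained 1 in MEL when MEL A was left out or no condition was set on single preparations. For comparison, 43.0% of all genes in MEL and 33.7% in ES-EP had a called window in the same kind of region, a share that depends on gene length.

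By class, activator E2Fs had 6 called windows of 290 in each cell type (2.07%), repressor E2Fs 5 of 216 in MEL (2.31%) and 6 in ES-EP (2.78%), and pocket proteins 4 of 573 in each (0.698%). These include windows at the starts of other genes within the regions, namely 2 of the ES-EP repressor windows at Elmo3, 1 of the MEL activator windows at Necab3 and 1 of the MEL pocket protein windows at Lpar6. Adjoining windows, such as those at Elmo3, were counted separately, so that a site at their border can count as 2. Windows called in both cell types were 3 for the activators, 4 for the repressors and 1 for the pocket proteins. The pocket protein regions are long, with 306 windows at Rb1 alone, and these shares were not tested against each other.

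**Figure D1:**
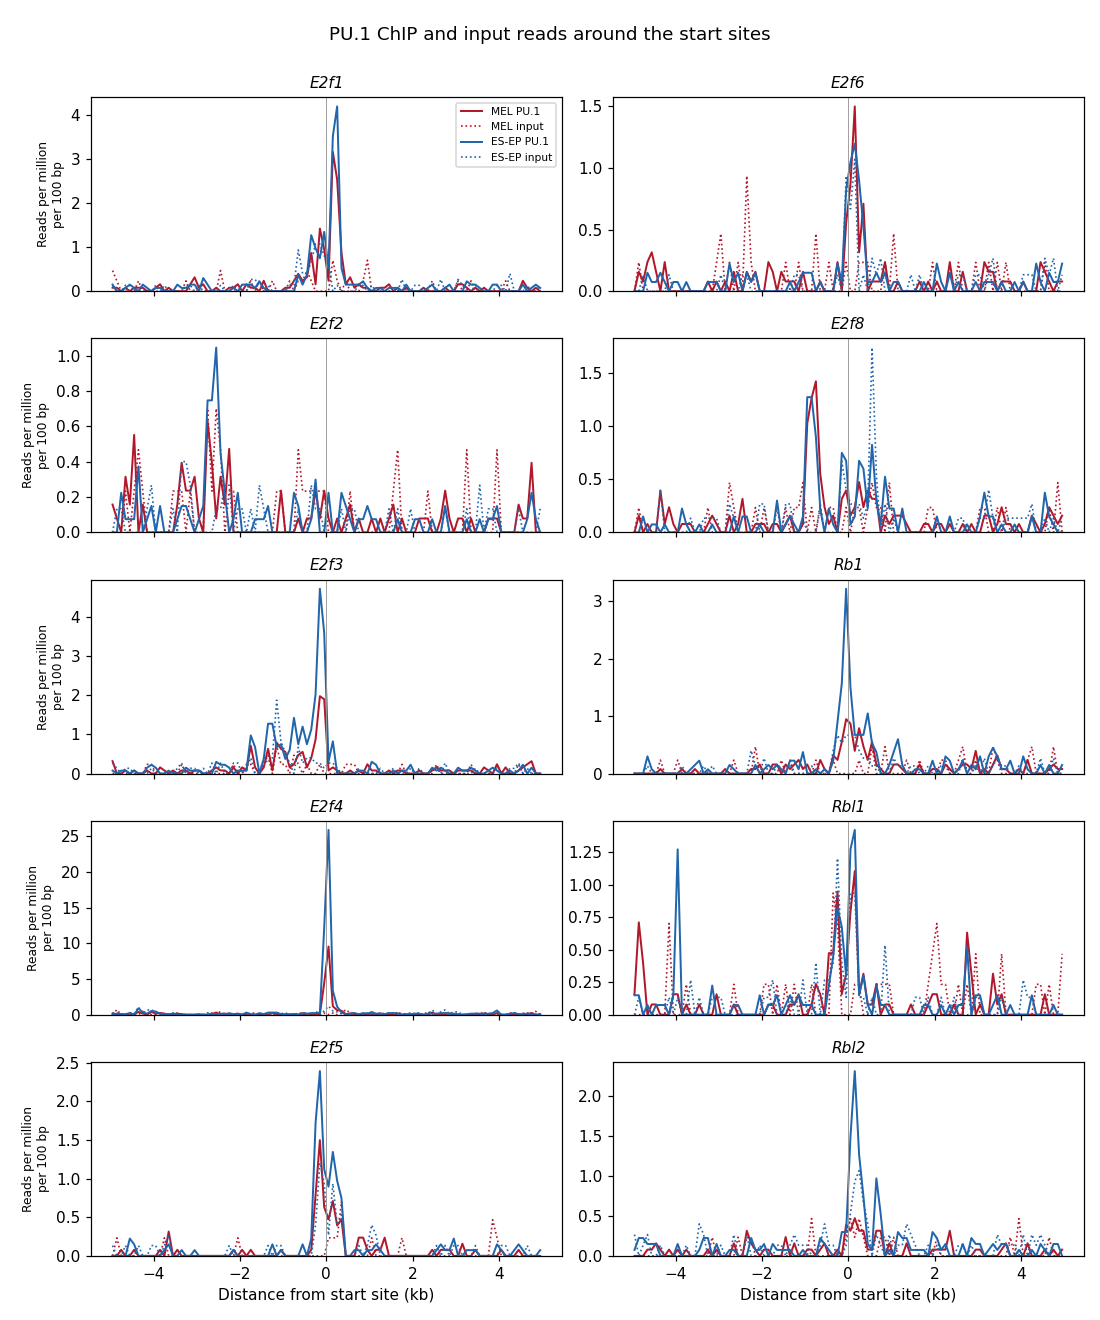
PU.1 ChIP (solid lines) and input (dotted lines) in reads per 1,000,000 reads (RPM) in bins of 100 bp, against the distance in kb from the annotated start site nearest to the strongest called window, for the 10 genes in MEL (red) and ES-EP (blue), with preparations summed and each panel on its own scale. E2f4 reached 9.54 RPM in MEL and 25.9 in ES-EP just after its start site, while no ChIP bin shown for E2f2 passed 1.05. The E2f2 panel is centred on its start at chr4:135736721. Its other start, at chr4:135728309, and its called window chr4:135730501-135731000 lie outside that panel.

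At promoters, 6 of the 10 genes had more PU.1 ChIP than input in MEL and 5 in ES-EP, and these numbers were the same for windows called within 500 bp of a TSS. When MEL B was left out 2 promoters passed in MEL, E2f1 and E2f4, and when ES-EP A was left out 2 passed in ES-EP, E2f3 and E2f4. Promoter reads were counted within 500 bp of all start sites of a gene and compared with input by an exact binomial test (two-sided, adjusted over all genes), which called 18.0% of genes above input in MEL and 13.0% in ES-EP. Called windows lay within 500 bp of a TSS in 26.0% of all genes for MEL and 15.9% for ES-EP, and of the windows that close to a TSS 7.47% and 4.08% were called. No member was called below input, against 0.494% and 0.307% of all genes. The median ratio of ChIP to depth-scaled input over the 10 promoters was 3.30 in MEL and 1.85 in ES-EP, against 1.61 and 1.24 over all genes. The median ChIP level of the 10 promoters had the opposite order, at 4.51 reads per kb and 1,000,000 reads in MEL and 7.54 in ES-EP, and the median input level was 1.69 in MEL and 3.74 in ES-EP. The higher ratios in MEL therefore went with a lower input, and whether the inputs are alike enough to compare ratios between the cell types was not tested. Per class the median was 3.01 and 2.20 for the activators, 3.69 and 1.73 for the repressors and 2.29 and 1.66 for the pocket proteins, in MEL and ES-EP in turn. E2f1, E2f3, E2f4, E2f5 and Rb1 passed in both cell types and E2f6 in MEL alone, while E2f2, E2f8, Rbl1 and Rbl2 passed in neither. The binomial intervals and tests cover counting error only, not the spread between preparations.

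A test that includes the spread between preparations called fewer. With limma voom on the preparations and input libraries, an analysis added after the data had been seen and with the MEL input as a lone library assumed to vary like the others, E2f4 was the single one of the 10 promoters called in either cell type, where 1.93% of all promoters tested passed in MEL and 4.03% in ES-EP. Its log2 ratio of ChIP to input was 2.76 ± 0.74 in MEL and 3.56 ± 0.62 in ES-EP (SE, limma adjusted p = 0.0198 and 4.02e-06). By the same test 3 of the 52 windows tested in these genes passed in MEL, against 6.58% of all windows tested. They lay at E2f3, E2f4 and upstream of Rbl1. In ES-EP 6 of the 52 passed, against 10.2%. They were the strongest windows of E2f1, E2f3, E2f4 and E2f8, 1 window at Elmo3 and 1 window of E2f2 that the Poisson test had not called. These shares of the 52 were close to those over all windows tested. The other promoter and window calls given here rest on tests that cover counting error.

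**Figure D2:**
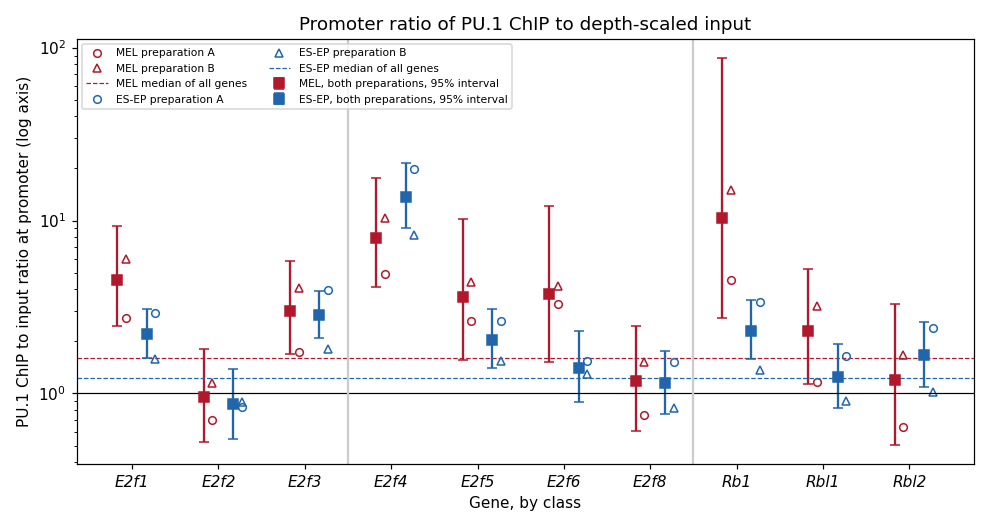
Ratio of PU.1 ChIP to depth-scaled input at each promoter on a log axis, with both preparations summed (squares, exact 95% intervals for counting error), preparation A (circles) and preparation B (triangles), in MEL (red) and ES-EP (blue); the dashed lines are the medians of all genes, and vertical lines divide activators, repressors and pocket proteins. E2f4 has the highest ratio in ES-EP (13.7) and Rb1 in MEL (10.3, on 2 input reads).

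Per length, the order of promoter levels was led by E2f4 in both cell types, at 10.3 (A) and 21.9 (B) RPM per kb for MEL and 63.4 and 26.3 for ES-EP. The next level was E2f1 in MEL, at 4.76 and 10.5, and Rb1 in ES-EP, at 15.3 and 6.19. E2f2 was last in both, at 1.31 and 2.14 in MEL and 1.83 and 1.97 in ES-EP. In MEL the A preparation of E2f4 (10.3) lay just below the B preparation of E2f1 (10.5), but E2f4 was above E2f1 within A (10.3 against 4.76) and within B (21.9 against 10.5), whereas both ES-EP preparations of E2f4 lay above both of Rb1. Further down, the preparations of each gene overlapped those of its neighbour in the order, except between E2f6 and E2f8 in MEL and between E2f8 and E2f2 in ES-EP. Overlap here can set A of one gene against B of the next. Among the overlapping neighbours, the order was the same within both preparations for E2f1 above Rbl1, E2f5 above E2f6 and E2f8 above Rbl2 in MEL, and for E2f1 above E2f5, E2f5 above Rbl2 and Rbl1 above E2f6 in ES-EP. MEL B lay above MEL A at all 10 genes, and ES-EP A above ES-EP B at all but E2f2.

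Among the activators, E2f1, which drives entry into S phase, carried its site just downstream of its start sites. The window chr2:154394501-154395000 held 21 reads in MEL A, 63 in MEL B and 3 in the MEL input, and 58 in ES-EP A, 47 in ES-EP B and 1 in the ES-EP input. All 4 preparations stood above their inputs, which a call in both cell types requires. The reads were 8.50 times the expected number in MEL (adjusted p = 2.55e-44) and 5.19 times in ES-EP (adjusted p = 7.55e-37, Poisson test). The summits lay 230 and 212 bp downstream of the nearest start, in the UTR, with GAGGAA 7 and 11 bp away. The adjoining window over the start sites was called in MEL alone, with 13 and 37 reads on 3 input reads (4.60 times expected), while ES-EP had 48 and 23 reads there on 30 input reads, and the MEL call was lost without MEL preparation B. Its summits, at chr2:154395001 in MEL and chr2:154395003 in ES-EP, lay at its border with the main window. Whether it holds a site of its own was not tested. A weak site centred 4622 bp upstream was called in both cell types, at 2.28 times expected in MEL and 3.68 times in ES-EP, and GGAAGT lay 18 and 1 bp from its summits. The MEL call there was kept under 3 of 9 other settings and the ES-EP call under 6 of 11. A further window called in MEL alone, with 10 and 13 reads on 1 input read (2.94 times expected) against 8 and 10 on 12 in ES-EP, lies 124 bp from the start of Necab3, downstream of E2f1, and its call was lost when either MEL preparation was left out.

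The E2f1 promoter as a whole gave 40 and 108 reads in MEL on 11 input reads, a ratio of 4.54 (95% interval 2.46 to 9.29, adjusted p = 1.74e-07, exact binomial test). In ES-EP it gave 117 and 72 reads on 48 input reads, a ratio of 2.20 (1.60 to 3.09, adjusted p = 4.22e-06). Both preparations of each cell type were above input. Without ES-EP preparation A the ES-EP ratio was 1.58 and was not called (adjusted p = 0.165, exact binomial test).

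E2f3, an activator required for proliferation, carried its strongest site between its 2 start sites, at chr13:30076001-30076500 in an intron of the longer transcript. MEL A had 12 reads, MEL B 54 and the MEL input 1, and ES-EP A had 113, ES-EP B 45 and the ES-EP input 10. Again all 4 preparations exceeded input, as the call requires, with B the higher one in MEL and A in ES-EP. Reads were 9.54 times expected in MEL (adjusted p = 1.81e-37) and 8.84 times in ES-EP (adjusted p = 4.81e-87, Poisson test). Both summits took the same value, 113 bp upstream of the downstream start site, and the middle of the printed GAGGAAGT was 1 bp from it. The promoter ratio was 3.01 in MEL (1.69 to 5.82) and 2.83 in ES-EP (2.10 to 3.89), and both passed. Without MEL preparation B the MEL ratio was 1.73 and was not called. A window 13838 bp from the nearest start was called in MEL alone, with 7 reads in each preparation and 1 in the input, and had GAGGAA 3 bp from its summit, and this call was lost when either MEL preparation was left out. The MEL call of the main window was also lost without MEL preparation B. A neighbour of the main site was called in ES-EP alone, with 36 and 24 reads on 12 input reads (1.94 times expected) against 9 and 11 on 4 in MEL, and was lost without ES-EP preparation A.

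E2f2, an activator known from erythroid maturation, had no called window at its promoter. Promoter counts pooled its 2 annotated starts, chr4:135728309 and chr4:135736721. The promoter held 15 and 30 reads in MEL on 16 input reads and 23 and 28 in ES-EP on 33. The ratios of 0.949 (0.526 to 1.80) and 0.865 (0.548 to 1.38) were below the medians of all genes. Both called windows of E2f2 were intronic and called in ES-EP alone. At chr4:135734001-135734500 ES-EP had 22 and 12 reads on 6 input reads (3.17 times expected), whereas MEL cells had 3 and 17 on 9. The printed GAGGAAGT was 3 bp from the ES-EP summit. At chr4:135730501-135731000 ES-EP had 16 and 17 reads on 5 input reads and MEL cells 3 and 3 on 3. Both calls were lost without ES-EP preparation A, with first libraries only and with the exact binomial test, and the first of them also with the first ES-EP input alone. These 2 differences between the cell types did not pass the limma test (log2 of MEL over ES-EP -1.02 ± 0.61 and -2.24 ± 1.19 (SE), adjusted p = 0.79 for both), and the second passed with limma trend in place of voom (adjusted p = 0.0336).

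Among the repressors, E2f4, which binds all pocket proteins and is abundant in resting cells, had the strongest site of the family. The window chr8:107821501-107822000 over its single start site held 57 reads in MEL A, 146 in MEL B and 6 in the MEL input, and 382 in ES-EP A, 174 in ES-EP B and 20 in the ES-EP input. The call requires each preparation to be above the expected number, and the folds were 7.13 in MEL A, 14.9 in MEL B, 22.8 in ES-EP A and 9.18 in ES-EP B. Reads were 11.4 times expected in MEL and 15.6 times in ES-EP, and the call was kept under all 9 other settings run in MEL and all 11 in ES-EP. The summits were 18 and 23 bp downstream of the start, within 1 and 4 bp of the last CGGAAG of the printed 30 bases and 2 and 3 bp of GGAAGT, and the upstream pair of CGGAAG lay 47 to 58 bp away. Reads on the 2 strands were offset by 121 bp in MEL and 131 bp in ES-EP around these summits. At the window with the most ChIP reads of each other gene, the offset lay between 70 and 183.5 bp, except at Rbl2 in ES-EP. There it was -25.5 bp, on 6 plus and 7 minus strand reads.

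The E2f4 promoter ratio was 7.95 in MEL (4.11 to 17.6) and 13.7 in ES-EP (9.09 to 21.5), at percentiles 97.4 and 99.8 of all genes. It passed with either preparation alone in each cell type, at 4.92 to 10.4 in MEL and 8.22 to 19.8 in ES-EP. With either ES-EP input alone it was 10.7 or 15.8. The 2 windows centred 7687 and 8187 bp downstream of the E2f4 start, called in ES-EP alone at 2.76 and 3.12 times expected, lie at the start of Elmo3 (251 and 98 bp from it). They held 10 and 13 reads on 1 input read and 17 and 22 on 7, against 2 and 9 on 2 and 6 and 5 on 2 in MEL, and the first call was lost when either ES-EP preparation was left out.

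E2f5, which pairs with p130, had 1 called window, in both cell types, at chr3:14578501-14579000. MEL cells had 17 and 34 reads on 2 input reads and ES-EP had 62 and 39 on 27. The fold over expected was 8.60 in MEL and 2.09 in ES-EP. Both calls of the window were lost with the exact binomial test on its own input, and the ES-EP call also with the second ES-EP input alone. The printed GGAAGT was 10 bp from the MEL summit and 43 bp from the ES-EP summit. The promoter ratio of 3.60 in MEL (1.57 to 10.2) and 2.05 in ES-EP (1.40 to 3.07) passed in both. In ES-EP it was 5.83 with the first input alone and 1.56 with the second, where it was no longer called (adjusted p = 0.188, exact binomial test). The 2 ES-EP inputs had 4 and 31 reads at this promoter. The MEL promoter call was lost when MEL B was left out (2.63), and the ES-EP calls of promoter (1.54) and window when ES-EP A was left out.

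E2f6, a repressor that acts without pocket proteins in a Polycomb-related complex, was called in MEL alone on the main grid of windows, and also had 1 called window in ES-EP with the grid moved by 250 bp. Its promoter window chr12:16817501-16818000 held 17 and 23 reads in MEL on 2 input reads (6.75 times expected, adjusted p = 4.07e-17, Poisson test) and 23 and 22 in ES-EP on 20 input reads (1.26 times). The MEL call of the window was lost with the exact binomial test on its own 2 input reads. None of the searched words was in this window. Between the cell types the input reads of this window differed more than its ChIP reads, and the input difference was not tested. Around the summits, 35 plus and 9 minus strand reads were counted in MEL, and 36 and 21 in ES-EP. The log2 difference of ChIP reads in this window was -0.10 ± 0.63 (SE, MEL over ES-EP, limma adjusted p = 0.958). The promoter ratio was 3.78 in MEL (1.53 to 12.1, passed) and 1.41 in ES-EP (0.890 to 2.29). The MEL promoter call was lost without MEL preparation B (3.30) and with second libraries only (3.03).

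E2f8, an atypical E2F that binds DNA without a dimer partner, lacked a called window at its start sites but had 2 sites called in both cell types. The window chr7:56137501-56138000, 784 bp upstream, held 24 and 34 reads in MEL on 2 input reads and 29 and 21 in ES-EP on 3. All 4 preparations were above input here, as the call requires, at 5.87 times expected in MEL and 5.60 in ES-EP (adjusted p = 2.25e-22 and 2.77e-18, Poisson test). The strands were uneven around its summits, with 15 plus and 36 minus strand reads in MEL and 10 and 41 in ES-EP. TTTCCCGC lay 116 and 229 bp from its summits, and none of the purine-rich words was in the window. The second site, downstream of the gene, was at 3.26 and 3.53 times expected with GAGGAAGT 52 and 84 bp from the summits, and its calls were lost when the B preparation of the cell type was left out. The promoter ratio was 1.18 in MEL (0.610 to 2.46) and 1.15 in ES-EP (0.763 to 1.76).

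**Figure D3:**
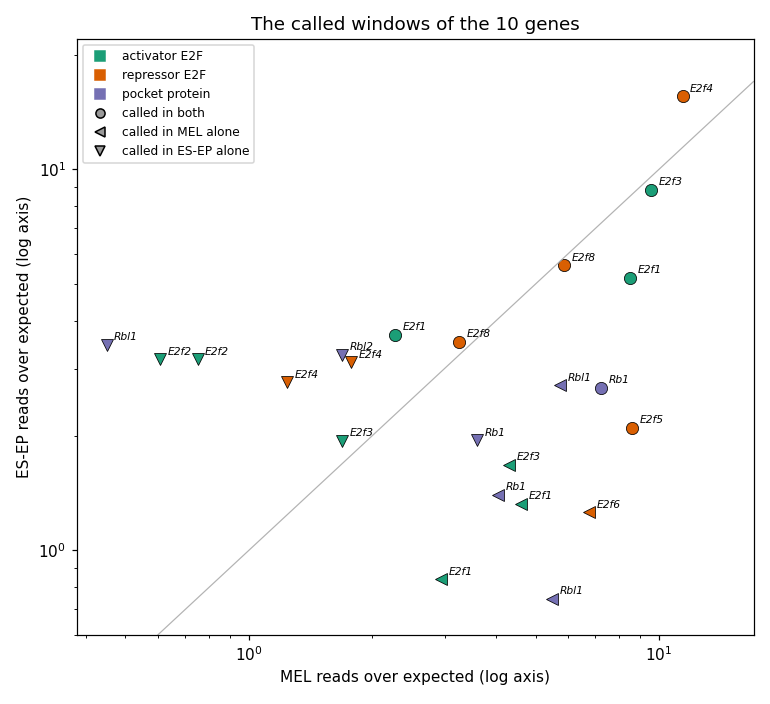
PU.1 reads over the expected number in MEL against ES-EP, on log axes, for the 23 windows called in either cell type, coloured by class; circles were called in both, triangles pointing left in MEL alone and triangles pointing down in ES-EP alone, and the line marks equal folds. E2f4 lies farthest out (11.4 and 15.6), and E2f6 (6.75 and 1.26) and E2f5 (8.60 and 2.09) lie to the right of the line.

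Among the pocket proteins, only Rb1 was called at its promoter. The window chr14:73725501-73726000 held 9 and 28 reads in MEL on 1 input read and 74 and 31 in ES-EP on 22. The fold over expected was 7.23 in MEL and 2.67 in ES-EP. The summits were 2 and 57 bp upstream of the start site, with GGAAGT 5 and 50 bp away, and TTTCCCGC 7 and 62 bp away in the printed 30 bases. The promoter ratio was 10.3 in MEL, with an interval from 2.73 to 86.9 on 2 input reads, and 2.30 in ES-EP (1.57 to 3.46). Without MEL preparation B the MEL ratio was 4.51 and without ES-EP preparation A the ES-EP ratio was 1.37, and neither was then called. The calls of the window were lost in the same way, and with the grid moved by 250 bp Rb1 had 2 called windows in MEL and 0 in ES-EP. The adjoining window on the gene side was called in ES-EP alone, with 25 and 19 reads on 12 input reads (1.94 times expected), and was lost without ES-EP preparation A. MEL cells had 5 and 27 reads there on 3 input reads (3.60 times expected), and MEL A did not pass by itself. A window called in MEL alone with 5 and 7 reads on 0 input reads lies 52 bp from the start of Lpar6, which is nested within Rb1, and its call was kept under 3 of 9 other settings.

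Rbl1 and Rbl2, the p107 and p130 genes, were not called at their promoters. Rbl1 had 14 and 47 promoter reads in MEL on 9 input reads, a ratio of 2.29 (1.13 to 5.24, adjusted p = 0.0832, exact binomial test), and 47 and 29 in ES-EP on 34, a ratio of 1.25 (0.825 to 1.93). Without MEL preparation A the MEL ratio rose to 3.20 and passed. Rbl2 had 6 and 19 reads on 7 input reads in MEL (1.20, 0.507 to 3.30) and 60 and 29 on 30 in ES-EP (1.66, 1.09 to 2.60, adjusted p = 0.103, exact binomial test). The ES-EP ratio of Rbl2 passed without ES-EP preparation B (2.38) and with 250 bp around the start site (2.34).

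Away from the promoters, Rbl1 had 3 windows and Rbl2 1, and none was called in both cell types. In ES-EP a window 4002 bp upstream of Rbl1 had 10 and 10 reads on 2 input reads (3.46 times expected), against 1 and 3 on 3 in MEL, with the printed GAGGAAGT 3 bp from the ES-EP summit. In MEL cells a window 5002 bp upstream had 8 and 9 reads on 0 input reads (5.47 times expected), against 1 and 3 on 1 in ES-EP, and GGAAGT was 2 bp from the MEL summit. That summit lies in an intron of another protein-coding gene. These neighbouring windows thus had opposite calls, and neither difference passed (log2 of MEL over ES-EP -2.01 ± 1.98 and 1.99 ± 2.00 (SE), limma adjusted p = 0.79 for both). An intronic Rbl1 window was called in MEL alone (5.73 times expected) with GAGGAA 33 bp from its summit, and an intronic Rbl2 window in ES-EP alone (3.25 times expected) with GGAAGT 33 bp away. The upstream ES-EP call of Rbl1 was kept under 6 of 11 other settings and the Rbl2 call under 5 of 11, and both were lost when either ES-EP preparation was left out. The upstream MEL call of Rbl1 was lost without MEL preparation B and the intronic one without MEL preparation A.

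Over the genome, GGAAGT lay within 25 bp of the summit in 32.6% of windows called in MEL and 39.7% in ES-EP, against 3.32% and 3.81% around a point 200 bp away. In the 10 genes this held for 7 of 15 windows in MEL and 5 of 16 in ES-EP, and for GAGGAAGT for 1 and 3, against 15.2% and 18.3% over the genome. E2F words were present in 3 of the 23 called windows (E2f3, E2f8 and Rb1), against 3.14% of all windows called in MEL, 2.49% in ES-EP and 2.56% of windows within 500 bp of a TSS. Of windows called in both cell types within 500 bp of a TSS, 6.89% held such a word. An E2F word lay within 25 bp of the summit in 1 of the 15 MEL windows, at Rb1, and in 0 of the 16 ES-EP windows. Such matches are letters in a window and were not tested as binding sites.

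The amplicons that the study used for quantitative ChIP at 3 of these genes were placed by both primers, and reads were counted in 500 bp around each. The E2f1 amplicon (chr2:154394847-154395000) lies on the called window and had 22, 68 and 4 reads in MEL A, MEL B and the input, and 68, 53 and 9 in ES-EP. The E2f4 amplicon (chr8:107821342-107821421), 182 bp upstream of the start, had 41, 113 and 3 in MEL and 318, 148 and 13 in ES-EP. The E2f2 amplicon (chr4:135728834-135728998), 607 bp downstream of its upstream start, had 9, 24 and 3 in MEL and 25, 26 and 17 in ES-EP. The E2f4 amplicon itself ends before the called window, and the 500 bp around it reach into that window. The E2f2 amplicon and the 500 bp around it lie in no called window. In these counts the MEL ratios to depth-scaled input were 7.59 for E2f1, 17.3 for E2f4 and 3.71 for E2f2. The ES-EP ratios were 7.52, 20.1 and 1.68.

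Partners of these proteins were counted as a list of 15 genes: the remaining E2F and dimer partners, the MuvB complex that joins pocket proteins in DREAM, the E2F6 complex and corepressors of the pocket proteins. Of their promoters, 8 of 15 were above input in MEL and 3 of 15 in ES-EP, with a median ratio of 2.44 and 1.24, and none was called below input. Over all genes 18.0% and 13.0% were above input, and the medians were 1.61 and 1.24. The highest in MEL were E2f7, another atypical E2F, at 24.96 (4.34 to 999 on 1 input read), the deacetylase Hdac1 at 6.18 (2.01 to 30.9 on 3 input reads) and the E2F6 partner Mga at 4.50 (1.43 to 22.7 on 3 input reads). The lowest were Lin52 at 0.843, the methyltransferase Suv39h1 at 1.12 and Lin54 at 1.46. In ES-EP the highest were Lin37 at 17.4 (2.89 to 707 on 1 input read), the demethylase Kdm5a at 2.31 and Mybl2 at 2.01, and the lowest were Suv39h1 at 0.560, Lin52 at 0.951 and the dimer partner Tfdp1 at 0.961.

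Depth-scaled ChIP reads of the 2 MEL and 2 ES-EP preparations were compared directly by limma voom. No promoter of the 10 genes and none of the 52 windows tested in them passed an adjusted p of 0.05, against 0.213% of all promoters (0.14% higher in MEL, 0.0733% in ES-EP) and 0.241% of all windows tested (0.16% and 0.0815%). An unadjusted p below 0.05 was reached by 2 of the 10 promoters and 5 of the 52 windows, against 7.63% and 6.46% of all. All 10 promoters had more reads in ES-EP, with a median log2 difference of -0.91, while the median over all promoters tested was -0.32. With median-ratio scaling, which brings the median of all promoters to 0.0030, 8 of 10 stayed on the ES-EP side, E2f2 (0.16) and E2f6 (0.07) turned to the MEL side, and Rbl2 passed (-1.39 ± 0.41 (SE), limma adjusted p = 0.0253). The largest differences were Rbl2 at -1.82 ± 0.61, E2f4 at -1.47 ± 0.83 and Rb1 at -1.36 ± 0.64 (SE, limma adjusted p = 0.276, 0.697 and 0.608). When the difference of ChIP to input was compared between the cell types, no promoter of any gene passed with limma voom (603 had an unadjusted p below 0.05), and Rb1 (1.67 ± 1.24) and E2f6 (1.35 ± 0.99) were the highest on the MEL side. By that measure 5 of the 10 promoters turned to the MEL side, the others being E2f1 (0.91), Rbl1 (0.51) and E2f5 (0.25).

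Over whole gene regions 2 of the 10 genes passed, both with more ChIP reads in ES-EP, where 7.06% of all genes passed, 2.32% in that direction and 4.74% in the other. An unadjusted p below 0.05 was reached by 3, against 19.5% of all genes. E2f4 had 127 and 253 reads in MEL and 532 and 382 in ES-EP, a log2 difference of -1.21 ± 0.26 (SE, limma adjusted p = 0.0188). Rbl2 had 142 and 188 reads in MEL and 334 and 331 in ES-EP, a log2 difference of -0.93 ± 0.19 (SE, limma adjusted p = 0.0117). The preparations of the cell types did not overlap at either gene, but both are named here because they passed the test. The share of all gene regions without such overlap was not counted.

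Both genes lie on chromosome 8, and the input moved with this difference. The input ratio of chromosome 8, MEL over ES-EP, was 0.732 on a scale where that of chromosome 13 is 1.0. Over the regions of E2f4 and Rbl2, depth-scaled input was 0.686 and 0.682 times as high in MEL as in ES-EP. Outside their called windows, the MEL ChIP reads were 0.550 and 0.518 times those of ES-EP. With the difference of ChIP to input in place of ChIP alone, the values were -0.66 ± 0.50 for E2f4 and -0.39 ± 0.28 for Rbl2 (SE, limma adjusted p = 0.983 for both), and no gene region in the genome was called (723 had an unadjusted p below 0.05). Without ES-EP preparation A they were -0.88 and -0.84 and missed the threshold (limma adjusted p = 0.0564 and 0.0527). E2f5 had an even lower depth-scaled input ratio over its region, 0.563, on 47 MEL and 146 ES-EP reads. The ratio of its chromosome 3 was 1.33 on the scale of the chromosome ratios. The ChIP difference of E2f5, -0.54 ± 0.23 (SE), did not pass (limma adjusted p = 0.221). The other 7 regions differed by -0.30 to -0.02 on the log2 scale and did not pass. All 10 estimates were negative with depth scaling, and E2f6 (0.02) and E2f8 (0.01) turned positive with median-ratio scaling.

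**Figure D4:**
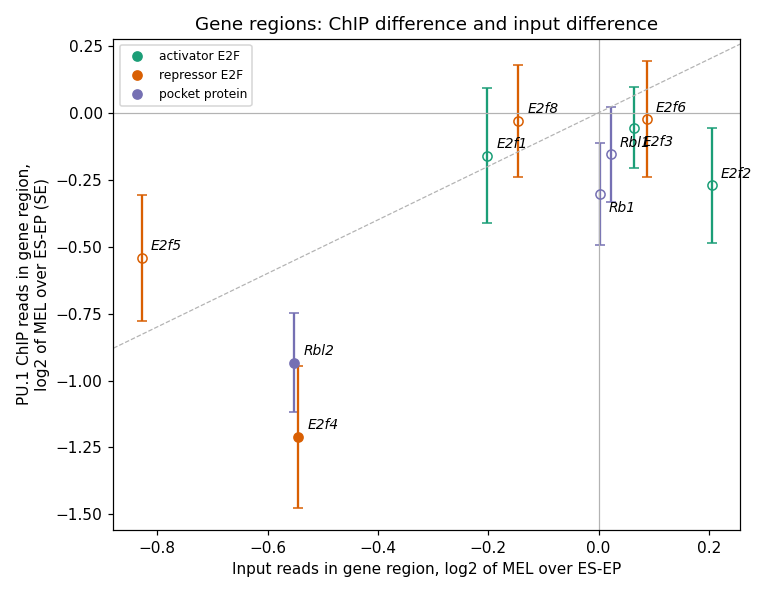
Log2 difference of PU.1 ChIP reads between MEL cells and ES-EP over each gene region (points, limma voom, bars are standard errors) against the log2 ratio of depth-scaled input reads of the same region, coloured by class; filled points passed the test, and the dashed line marks equal differences. E2f4 (-1.21) and Rbl2 (-0.93) passed and lie at low input ratios (0.686 and 0.682 before the logarithm).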

How the data were processed

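PU.1 ChIP-Seq and input libraries of MEL cells and ES-EP were used. The deposited files list 1 read per line and hold no measured value. The authors sequenced on an Illumina GAII, aligned with ELAND to mm9 (version not given in the sources used here) and kept unique alignments with few mismatches. Their merged peaks of cisGenome and spp were not used. All counts were made here. Starts in the 11 files count from 1, as tested against the NCBIM37 genome. Each 5′ end was moved by 70 bp (MEL) or 65 bp (ES-EP), and reads on chromosomes 1 to 19, X and Y were counted. Genes came from GENCODE on the same assembly.

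Expected reads were set to the maximum of the depth-scaled input of the window, its mean over 3, 11 or 21 windows, and the genome mean of ChIP reads. The summit of a window was the point with the most shifted ChIP reads within 75 bp. Points were taken at regular steps and not at each base, so that distances of a few bp are approximate. Promoters were tested with exact binomial tests. The cell types were compared with limma 3.58.1 (R 4.3.3) on features with at least 20 reads over the preparations. Tools that model counts were not run on lines of alignments. Python 3.11.15, numpy 2.4.6 and scipy 1.17.1 were used. Both steps were tested on simulated data. The libraries of a preparation were summed, and the preparations are taken as separate chromatin from the study's methods. The letters A and B are not known to pair preparations across the cell types. The members, the partner list and the words were chosen with earlier results of these data known. All 10 genes are named, and of the 15 partners the 3 highest and 3 lowest promoter ratios in each cell type, with neighbouring genes whose start lies within 1 kb of a called window. Alternatives were repeated positions, single libraries, input scaling, window grid and threshold, promoter width, single inputs, normalization, filter, test and each preparation left out.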

Additional observations from a re-analysis of the deposited data

How the results depend on the processing

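The called windows in the 10 genes stayed within 1.5 times the 15 in MEL cells and 16 in ES-EP with repeated positions removed, second libraries only, another input scaling, a shifted grid, adjusted p below 0.01 or no condition on single preparations. The shifted grid changed ES-EP windows from 2 to 0 at Rb1 and from 0 to 1 at E2f6. They fell to 4 and 3 with first libraries only and to 4 and 4 with the exact binomial test on the window's own input. Limma voom of ChIP against input over the preparations, added after seeing the data, gave 3 and 6 windows and 1 and 1 promoters. Leaving out a preparation gave 6 to 13 in MEL cells and 6 to 16 in ES-EP. Called promoters were 2 in ES-EP with first libraries only, against 5, and 2 to 7 in MEL cells and 2 to 6 in ES-EP with a preparation left out. Over the genome, first libraries only, the exact binomial test and the lowest single preparation gave 7509, 3039 and 8838 windows in MEL cells, against 18,349, and 5012, 4770 and 5613 in ES-EP, against 13,538, and called promoters fell from 3868 to 2358 and 979 in MEL cells and from 2803 to 1276 and 1079 in ES-EP with first libraries only and with the more enriched preparation left out. Rb1 had 36 MEL ChIP reads on 0 input reads within 250 bp, so that no ratio was given. Single ES-EP inputs, tried after seeing the data, gave 14 and 13 windows and 5 and 4 promoters.

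Between the cell types, the 10 genes had 0 called windows, but 1 with median-ratio scaling, 1 with limma trend and 5 with crossed letters, and 0 called promoters, but 1 with median-ratio scaling and 5 with crossed letters. Leaving out each preparation gave 0 windows and 0 promoters. The 2 called regions became 0 with the difference of ChIP to input and 0 to 3 with a preparation left out. Over all features, 157 windows became 2 (first libraries), 21 (second libraries), 1369 (median-ratio), 1743 (trend), 24 (at least 40 reads), 39 (difference to input) and 0 to 41 (a preparation left out), 32 promoters became 1, 4, 644, 42, 0 (no filter), 0 (difference to input) and 5 to 82, and 1527 regions became 949 (second libraries), 2486 (median-ratio), 0 (difference to input) and 726 to 1903.

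The block on the preparation letter gave 10 windows, 18 promoters and 1500 regions, with 0, 0 and 2 in the 10 genes. The letters were not taken as pairs, since no label pairs them across the cell types. The deviations of the A preparations correlated with r = 0.0083 over windows, -0.19 over promoters and -0.17 over regions. These values cannot decide on pairing, because B was the more enriched preparation in MEL and A in ES-EP. Crossed letters, chosen after seeing the data, gave 1812 windows, 2221 promoters and 3090 regions.

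Each cell type had 2 preparations and many windows held few input reads, which limits the precision of the folds at weak windows.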
